A study of Saccharomyces cerevisiae with 8 samples.

Results

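Nuclear tRNA genes of Saccharomyces cerevisiae were examined for peaks of Rap1, which binds DNA at telomeres and in many promoters, in cultures of 16 h and 14 d. The set was every nuclear gene of biotype tRNA in the RefSeq gene table of release R64, which gave 275 tRNA genes of 6477 genes in the table. Each gene was 71 to 133 bp long, and the window taken for it was the gene with 250 bp on either side, 573 bp at the median. A tRNA gene was counted as having a peak when a Rap1 peak overlapped this window by at least 1 bp. Rap1 chromatin immunoprecipitation was followed by sequencing (ChIP-seq) in 4 libraries, 2 biological repeats at each time, and the other 4 of the 8 libraries of the study were inputs and were not analysed here. All groups were strain JDY86 grown in YPD, a rich glucose medium, at 30 degrees. JDY86 is a MATa strain with his3, leu2, trp1, ura3 and met15 markers, on which a histone mutant library was built. In that library the hht1-hhf1 histone gene pair is deleted and the hht2-hhf2 pair is replaced by a synthetic one linked to URA3. Which histone alleles the 4 libraries carried is not given in the labels. The strain was JDY86 at both times, but whether the histone alleles were also the same is not stated.

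tRNA genes are transcribed by RNA polymerase III from promoter elements that lie inside the transcribed sequence. The factor TFIIIC binds these A and B boxes and places TFIIIB just upstream of the start, after which the polymerase is recruited. Transcribed tRNA genes are short and depleted of nucleosomes, and in yeast a tRNA gene can act as a boundary to silent chromatin. Rap1 recruits silencing proteins at telomeres and at the silent mating-type loci, and it activates the genes of ribosomal proteins and glycolysis. The question for the tRNA genes was whether Rap1 peaks lay at them or at their protein-coding neighbours, and whether this differed between 16 h and 14 d.

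The 4 lists differed in depth more by repeat than by time. Repeat 1 gave 87 peaks at 16 h and 109 at 14 d, whereas repeat 2 gave 480 and 564. The genome background pileup, the number of fragments over an unremarkable base and a relative measure of depth, was 0.414 and 8.87 at 16 h and 1.71 and 11.7 at 14 d. Both repeat 1 lists were therefore shallow, and the part of depth in their low counts at tRNA genes was not tested. Most of the values below come from the repeat 2 lists. The peak names of 14 d repeat 2 call it a merge, and what was merged is not stated. It was counted as 1 biological repeat, as labelled, and whether it is independent of the other lists could not be checked.

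Few tRNA genes had a Rap1 peak in any list. At 16 h, 1 of 275 tRNA genes (0.364%) had a peak in repeat 1 and 3 (1.09%) in repeat 2. At 14 d, 0 had a peak in repeat 1, for which the exact 95% binomial interval reaches 1.33%, and 13 (4.73%) in repeat 2. The interval was 0.226 to 3.15% for 16 h repeat 2 and 2.54 to 7.95% for 14 d repeat 2, and it covers counting error only. Over all 6431 nuclear genes with the same flank, the share with a peak was 1.17% and 8.85% at 16 h and 1.57% and 11.7% at 14 d. These genes are longer than tRNA genes, so windows of 572 bp centred on the start codons of 6002 protein-coding genes were also taken. The share of start codon windows with a peak was 0.900% and 7.21% at 16 h and 1.22% and 9.36% at 14 d. These windows include those of 137 ribosomal protein genes, known targets of Rap1, which were not left out here. Of the 137, 16.8 and 78.1% had a peak at 16 h and 6.57 and 83.2% at 14 d. The tRNA genes were thus below both backgrounds in each of the 4 lists. The mean over the lists was 1.55% for tRNA genes and 4.67% for start codon windows, a difference of -3.13 points ± 2.68 (SD, n = 4 lists). In a two-sided exact sign-flip permutation test over the lists, chosen after seeing the data, this gave p = 0.125, the smallest that 4 lists allow. Since all 4 lists went the same way, no other p was possible. The SD is over lists of unlike depth and is not a spread between like repeats.

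**Figure D1:**
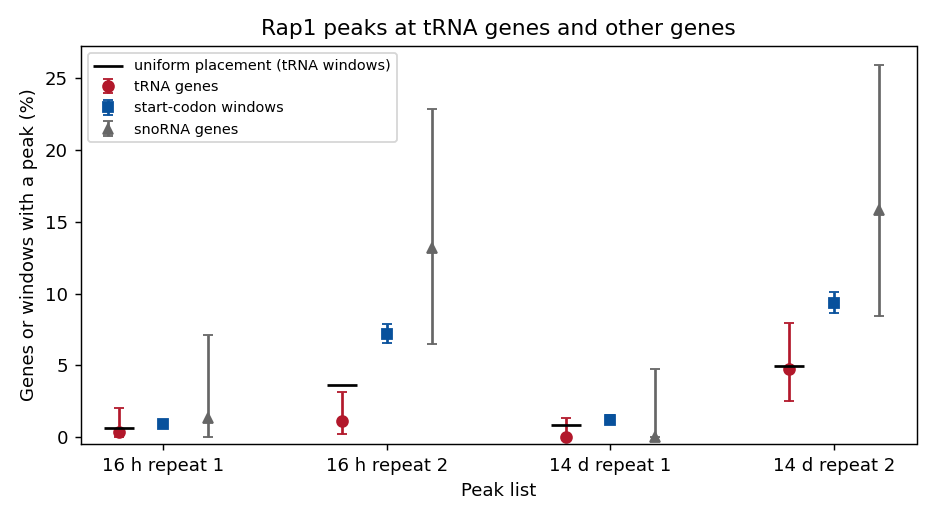
Points give the share (%, y axis) of nuclear tRNA genes, start codon windows and snoRNA genes with a Rap1 peak in each of the 4 lists, with exact 95% binomial intervals as error bars, and the black line gives the share of tRNA genes expected if every peak were placed uniformly on its own chromosome. The tRNA point is below the start codon point in all 4 lists, and in 14 d repeat 2 it reaches 4.73% against 4.95% by placement.

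The windows were next set against a uniform placement of the peaks. Each peak was placed at its own width along its own chromosome, and the expected number of tRNA genes with a peak was computed exactly. Placement gave 1.67 and 9.90 tRNA genes at 16 h and 2.22 and 13.6 at 14 d, against 1, 3, 0 and 13 observed. The ratio of observed to placed was 0.598 and 0.303 at 16 h and 0 and 0.955 at 14 d. The 16 h repeat 2 list therefore held fewer tRNA genes with a peak than placement gave, while the 14 d repeat 2 list held about as many. Averaged over the 4 lists the share was 1.55% against 2.49% by placement, a difference of -0.946 points. The exact sign-flip permutation test, again chosen after seeing the data, gave p = 0.125, the smallest that 4 lists allow. The number was below placement in 4 of 4 lists, but only slightly in 14 d repeat 2. A like shortfall in every list is thus not shown. When only peaks whose summit lay in the window were counted, the numbers were 0, 2, 0 and 7, against 1.11, 6.27, 1.26 and 7.31 by placement.

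Uniform placement treats coding and non-coding bases alike, whereas only 7.14 to 22.1% of the summits in a list lay in coding sequence, which makes up 72.8% of the nuclear genome. Summits outside coding sequence were therefore also placed on non-coding bases alone, a setting chosen after seeing the data. Under it the tRNA windows held 0, 2, 0 and 6 such genes, against 3.47, 18.4, 3.20 and 21.6 by placement. The ratio was 0.108 for 16 h repeat 2 and 0.278 for 14 d repeat 2. For start codon windows the same ratio was 0.364 and 0.867 at 16 h and 0.446 and 0.722 at 14 d. Relative to the non-coding genome, tRNA genes held fewer summits than placement gave in every list, and start codon windows did too. Neither kind of placement set chromosome ends apart, whereas only 1 tRNA gene was closer than 20 kb to an end. The part of peaks near chromosome ends in these shortfalls was not tested.

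Most of the tRNA genes with a peak had it in a single list. In all, 262 of the 275 tRNA genes had a peak in no list, 10 in 1 list, 2 in 2 lists, 1 in 3 lists and 0 in all 4. The 3 tRNA genes of 16 h repeat 2 were all among the 13 of 14 d repeat 2, and the 10 genes in 1 list were all from 14 d repeat 2. No tRNA gene had a peak in both repeats of one time and in neither of the other. The 13 genes lay on 7 of the 16 chromosomes, with 5 of the 36 tRNA genes of chromosome VII among them, and 9 chromosomes had none. Only 1 of the tRNA genes was closer than 20 kb to a chromosome end, and it had no peak.

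Many tRNA genes lie beside protein-coding genes, and the promoters of these neighbours were examined separately. The 500 bp upstream of each start codon were taken as the promoter, and 168 of the 275 tRNA windows overlapped at least 1 of them. Of these 168 genes 1, 2, 0 and 8 had a peak in the order 16 h repeats 1 and 2 and 14 d repeats 1 and 2, which is 0.595, 1.19, 0 and 4.76%. Of the 107 tRNA genes with no such promoter in the window 0, 1, 0 and 5 had a peak, or 0, 0.935, 0 and 4.67%. In 14 d repeat 2 the tRNA genes with and without a promoter beside them thus had nearly the same share.

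The promoters beside tRNA genes themselves had fewer peaks than promoters elsewhere. Among 225 promoters that overlapped a tRNA window, 1 and 2 had a peak at 16 h (0.444 and 0.889%) and 0 and 8 at 14 d (0 and 3.56%). Among the 5777 other promoters the share was 1.23 and 9.50% at 16 h and 1.75 and 11.7% at 14 d. The promoters beside tRNA genes include those of repeated Ty element reading frames, such as YDR210C-D and YDR210C-C beside YNCD0017W, which were not separated. How reads from such repeats bear on the share was not tested. Of the promoters of ribosomal protein genes, known targets of Rap1, only 1, that of RPL26A, lay beside a tRNA gene and 136 lay elsewhere. Without these promoters the share was 0 and 0.446% at 16 h and 0 and 3.13% at 14 d for 224 promoters beside tRNA genes, against 0.833 and 7.61% and 1.56 and 9.84% for 5641 others. The mean difference over the lists was -4.07 points ± 3.33 (SD, n = 4 lists), lower in 4 of 4 lists (exact sign-flip permutation test, p = 0.125). In all, 5 such comparisons over the 4 lists were made, a test chosen after seeing the data, and each gave a Benjamini-Hochberg adjusted p of 0.125 in this exact permutation test.

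**Figure D2:**
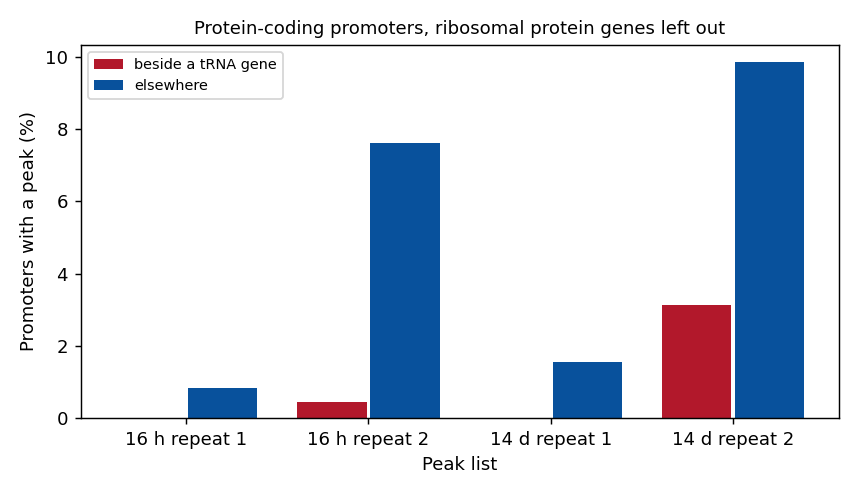
Share of protein-coding promoters (500 bp before the start codon, ribosomal protein genes left out) that held a Rap1 peak (%, y axis) in each list, for promoters beside a tRNA gene and for those elsewhere. The share beside tRNA genes is 0 in both repeat 1 lists, and it is 3.13% against 9.84% in 14 d repeat 2.

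The snoRNA genes, short non-coding genes that are mostly transcribed by RNA polymerase II, were taken for contrast. Of 76 nuclear snoRNA genes 1, 10, 0 and 12 had a peak in the 4 lists in the same order. After leaving out those whose window lay at a ribosomal protein gene, 66 remained, and 1.52 and 9.09% of them had a peak at 16 h and 0 and 12.1% at 14 d. Placement gave 0.729 and 4.05% and 0.892 and 5.60% for them. In both repeat 2 lists the snoRNA genes were therefore above placement and the tRNA genes were not.

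Individual tRNA genes were then described, starting with the 3 that had a peak in both repeat 2 lists. Most tRNA genes carry only a locus tag in the gene table, and no amino acid is given for those. TRR4 (YNCL0045W), an arginine tRNA gene at chromosome XII 818609 to 818680, was the only one with a peak in 3 lists. Its peak had a fold enrichment, the ratio of summit pileup to local background with 1 added to each, of 3.93 in 16 h repeat 1, 15.9 in 16 h repeat 2 and 15.5 in 14 d repeat 2. In 14 d repeat 1 the nearest peak was 21713 bp away. The summit pileups were 5, 161 and 196 fragments over backgrounds of 0.526, 9.20 and 11.7. The summits lay 296.5, 359.5 and 357.5 bp downstream of the middle of TRR4, which was 371, 308 and 310 bp before the start codon of RPL26A, a ribosomal protein of the large subunit. All 3 summits were thus in the RPL26A promoter and outside the 250 bp flank of TRR4, which only the edge of the peak reached.

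SUP17 (YNCI0006W), a serine tRNA gene at chromosome IX 248850 to 248931 known for nonsense suppressor alleles, had a peak over its body. The fold enrichment was 13.9 for 16 h repeat 2 and 19.8 for 14 d repeat 2, with summit pileups of 319 and 347 fragments over backgrounds of 22.0 and 16.6. Neither repeat 1 list held a peak at it. The summits lay 125.5 and 126.5 bp upstream of the middle of the tRNA gene, and 369 and 368 bp before the start codon of RGI2, a gene of energy metabolism under respiratory growth. The peak spanned 248591 to 248954 at 16 h and 248517 to 249626 at 14 d, so the tRNA gene lay inside it both times.

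YNCG0034W, at chromosome VII 774349 to 774421, was the only one of the 3 shared tRNA genes whose peak summits lay in no protein-coding promoter. The fold enrichment was 11.7 for 16 h repeat 2 and 15.6 for 14 d repeat 2, and the summit pileups were 136 and 201 fragments over backgrounds of 10.7 and 12.0. The summits were 140 and 136 bp downstream of the middle of the gene, or 104 and 100 bp past its end. The closest start codon for which they lay upstream was that of SKN1, a gene of cell wall glucan synthesis, at 668 and 672 bp. Across the 3 shared genes the summits of the repeat 2 lists were 2, 1 and 4 bp apart, so each peak had nearly the same position at 16 h and 14 d.

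**Figure D3:**
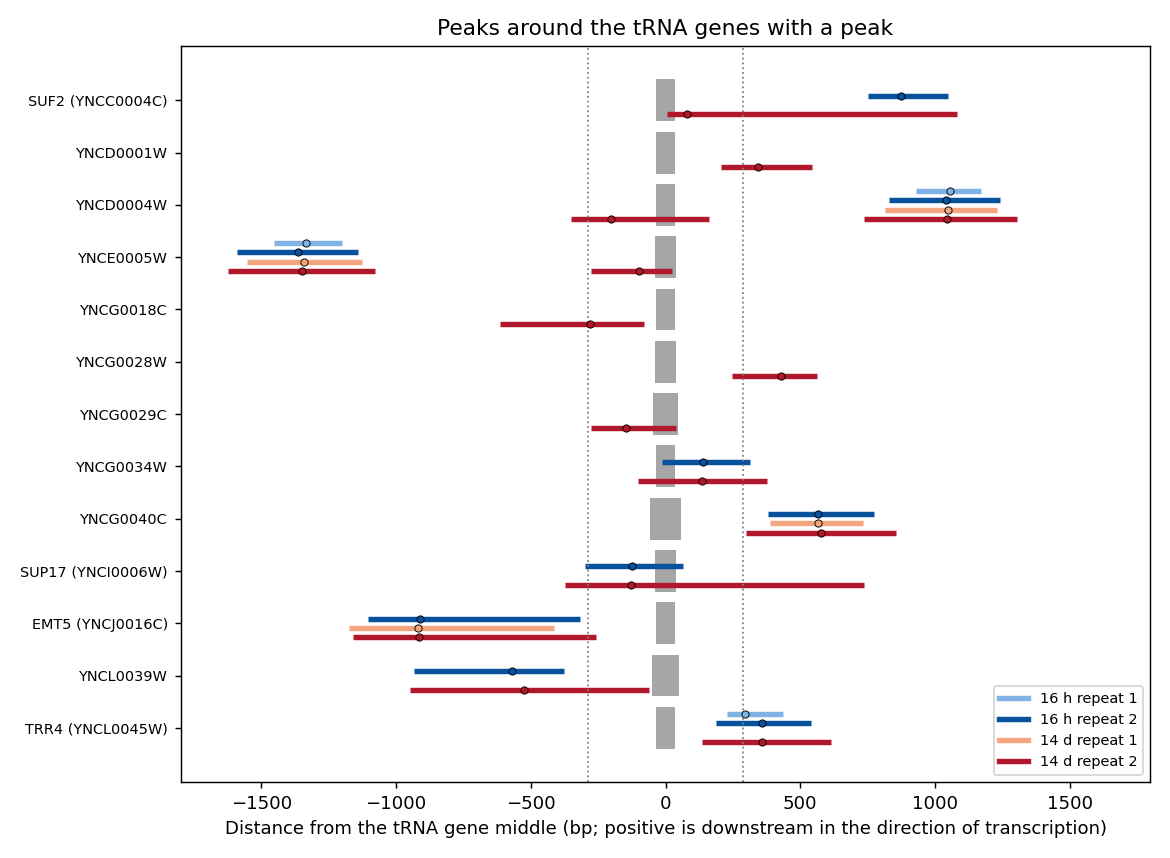
Rap1 peaks around the 13 tRNA genes with a peak, by distance from the middle of the tRNA gene (bp, x axis, negative upstream in the direction of transcription), with a coloured line for each peak within the plotted range in each list, a point for its summit and a grey block for the tRNA gene. The dotted lines mark the ends of a window of median length, and no summit lies in a tRNA gene.

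The remaining 10 tRNA genes had a peak in 14 d repeat 2 alone and are named after their values were seen. At 3 of them a peak with a more distant summit reached the window only in this list, in which peaks were wider, with a median of 459 bp against 328 bp in 16 h repeat 2. YNCG0040C, at chromosome VII 857378 to 857491, had a peak of fold enrichment 32.8 whose summit was 578.5 bp from its middle and 555 bp before the start codon of RNR4. The same peak ended 325 bp from this gene in 16 h repeat 2 (fold enrichment 27.3) and 333 bp from it in 14 d repeat 1 (16.3). EMT5 (YNCJ0016C), an elongator methionine tRNA gene at chromosome X 391043 to 391115, had a peak of fold enrichment 20.2 whose summit was 915 bp from its middle and 410 bp before the start codon of RNR2. That peak ended 281 bp from EMT5 in 16 h repeat 2 (20.5) and 378 bp from it in 14 d repeat 1 (12.6). RNR2 and RNR4 both encode small subunits of ribonucleotide reductase, which makes the precursors of DNA. YNCL0039W, at chromosome XII 784354 to 784453, had a weaker peak of fold enrichment 5.08 with a summit 526.5 bp from its middle in the promoter of TMA10, and in 16 h repeat 2 this peak (3.37) ended 328 bp away.

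At SUF2 (YNCC0004C), a proline tRNA gene at chromosome III 123577 to 123648 known for frameshift suppression, the fold enrichment was 2.66 in 14 d repeat 2. The peak was wide, from 122530 to 123606, and its summit lay 79.5 bp from the middle of SUF2. In 16 h repeat 2 a peak of fold enrichment 2.38 overlapped it, with its summit 796 bp away in the promoter of CIT2, a citrate synthase gene. The 2 summits therefore did not mark the same position.

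The other 6 genes shared 5 peaks that overlapped no peak of 16 h repeat 2, and their fold enrichment was low, from 2.45 to 5.65. YNCD0001W, at chromosome IV 83548 to 83618, had the highest of these, 5.65, with 71 fragments at the summit over a background of 11.7, in the promoter of the GABA permease gene UGA4. YNCD0004W, at chromosome IV 410379 to 410451, had a peak of 2.85 in the promoters of DIA3 and YDL022C-A. A stronger peak in the promoter of GPD1, which encodes glycerol-3-phosphate dehydrogenase, lay 700 to 892 bp from YNCD0004W in all 4 lists, with a fold enrichment of 5.53 and 59.8 at 16 h and 30.2 and 42.7 at 14 d. YNCE0005W, at chromosome V 86604 to 86685, had a peak of 2.45 in the promoter of the replicative helicase gene MCM3. In all 4 lists a peak in the promoter of HYP2, the gene of translation factor eIF5A, lay 1039 to 1160 bp from YNCE0005W, with a fold enrichment of 7.86, 31.8, 20.8 and 26.3. At both loci the strong peak common to the 4 lists was thus outside the tRNA window.

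The other 3 of these genes lay on chromosome VII with no protein-coding promoter under the summit. YNCG0018C, at 412294 to 412367, had a peak of fold enrichment 3.30 with 41 fragments at the summit over a background of 11.7. YNCG0028W, at 700675 to 700756, and YNCG0029C, at 700953 to 701048, shared a peak of fold enrichment 3.77 with 47 fragments over 11.7. The shared peak spanned 700961 to 701278, and its summit was 430.5 bp from the middle of YNCG0028W and 145.5 bp from that of YNCG0029C. The start codons of protein-coding genes nearest downstream of these 2 peaks, those of RPT6 and VOA1, were 1326 and 1360 bp away.

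No summit of any list lay inside a tRNA gene. The peak covered part of the gene body at 0, 2, 0 and 6 tRNA genes in the 4 lists, against 0.715, 4.57, 1.14 and 7.47 by placement. The median distance of the summit from the middle of the tRNA gene was 296.5 bp in 16 h repeat 1, 140 bp in 16 h repeat 2 and 281.5 bp in 14 d repeat 2, where it ran from 79.5 to 915 bp. Summits lay within 100 bp of the gene at 0, 1 and 5 tRNA genes in these lists. They were upstream of the middle at 0, 1 and 7 tRNA genes and downstream at 1, 2 and 6, so summits lay on both sides of the tRNA genes.

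The share of these peaks with the summit in a protein-coding promoter turned on the length given to the promoter. With 500 bp the summit lay in a promoter for 1 of 1 peak at a tRNA gene in 16 h repeat 1, 2 of 3 (66.7%) in 16 h repeat 2 and 7 of 12 (58.3%) in 14 d repeat 2. Among the other peaks of the same lists the share was 54.2, 69.4 and 66.7%. With a promoter of 250 bp it was 0 of 1, 0 of 3 and 1 of 12 (8.33%) at tRNA genes, against 12.0, 29.1 and 24.3% of the other peaks. With 1000 bp it was 1 of 1, 3 of 3 and 10 of 12 (83.3%), against 80.7, 91.2 and 90.0%. Outside the 500 bp promoters, the remaining summits, 1 in 16 h repeat 2 and 5 in 14 d repeat 2, lay neither in a promoter nor in coding sequence. Of the 7 promoter summits of 14 d repeat 2, 2 also lay in the coding sequence of another gene. These were the summits at EMT5, in YJL027C, and at YNCE0005W, in MTC7. The share in promoters was not tested against that of the other peaks, and counts of 1 to 12 peaks leave the share imprecise.

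Peaks at tRNA genes did not hold the top of the fold enrichment ranks. The median fold enrichment was 3.93 for the peak in 16 h repeat 1, 13.9 in 16 h repeat 2 and 5.37 in 14 d repeat 2, against 7.07, 7.70 and 8.09 for the other peaks of these lists. As a percentile within the nuclear peaks of the list the median was 5.36, 70.0 and 36.0, where 100 would be the highest. In 14 d repeat 2, 7 of the 12 peaks were below the median of their list. Fold enrichment moves with depth, so it was ranked within a list and not compared between lists.

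**Figure D4:**
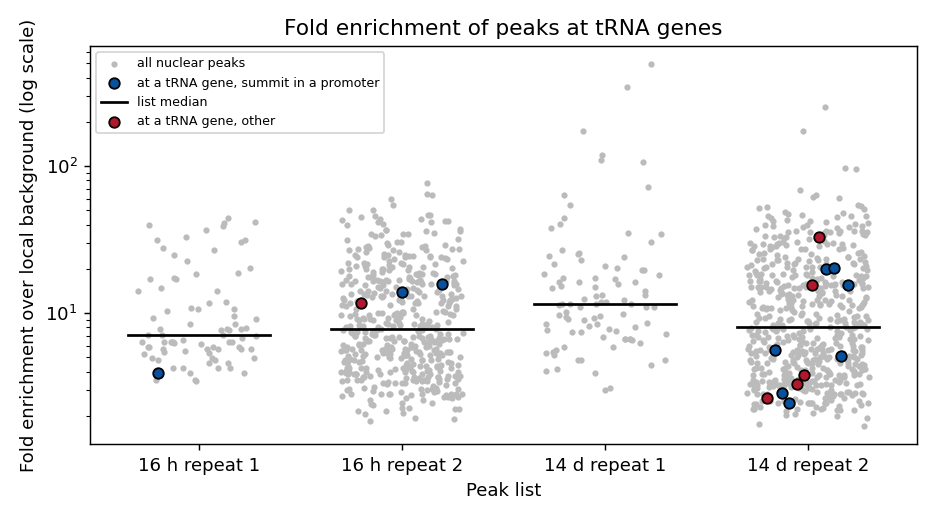
Fold enrichment on a log axis (y axis) of every nuclear Rap1 peak (grey) in the 4 lists (x axis), with the list median as a line and the peaks at tRNA genes coloured by whether the summit lies in a protein-coding promoter. Sideways scatter only spreads the points, the 12 coloured peaks of 14 d repeat 2 run from 2.45 to 32.8, and 14 d repeat 1 has none.

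Beyond the window, both repeat 2 lists held fewer tRNA genes near a peak than placement gave. The median distance from a tRNA gene to the nearest peak was 62171 and 9961 bp at 16 h and 37060 and 7655 bp at 14 d. Within 1 kb there was a peak for 3 and 13 tRNA genes at 16 h and for 6 and 22 at 14 d, against 4.53, 25.3, 5.44 and 31.2 by placement. Within 5 kb it was 10, 74, 30 and 97, against 19.3, 93.7, 21.9 and 107. The 14 d repeat 1 list was above placement within 1 kb and 5 kb, and the other 3 lists were below it. Within 10 kb the numbers were 25, 139, 48 and 159, against 36.7, 154, 41.0 and 170. At none of the 8 distances examined, from 0 to 10 kb, was either repeat 2 list above placement. Each distance includes the shorter ones, so these are not separate observations. Placement here also spread peaks up to chromosome ends, where few tRNA genes lie, and the part of this was not tested.

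**Figure D5:**
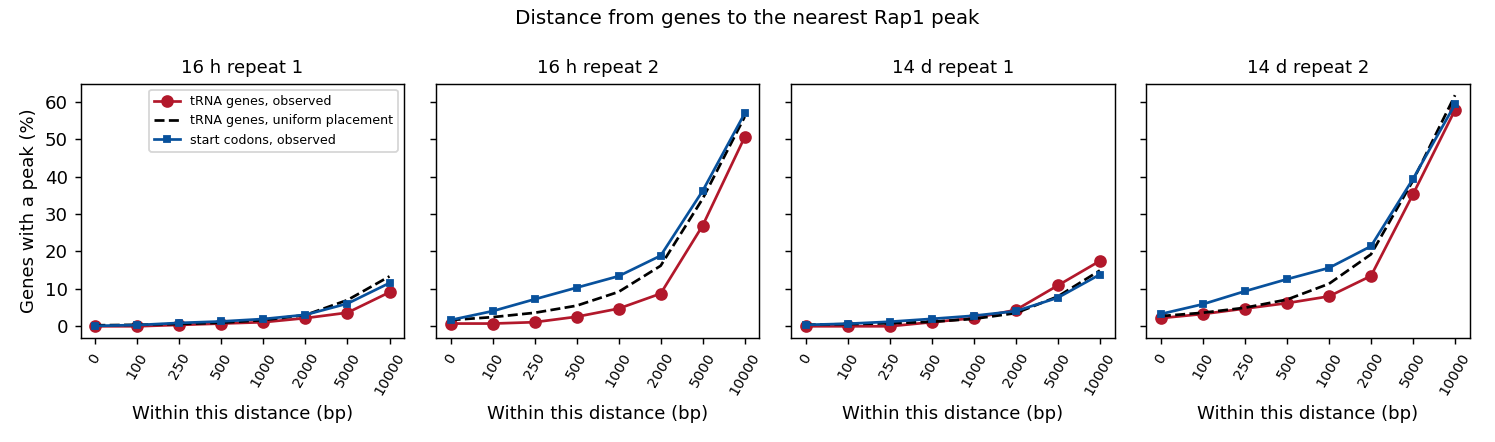
Share of nuclear tRNA genes (%, y axis) with a Rap1 peak within a given distance of the gene (bp, x axis, steps not to scale), 1 panel per list, beside the share expected for them from uniform placement and the share observed around start codons. Within 1 kb the tRNA points stand for 13 genes against 25.3 by placement in 16 h repeat 2, and for 22 against 31.2 in 14 d repeat 2.

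In all, 4 tRNA genes had a peak just outside the window, between 250 and 500 bp from the gene, and in no list within it. YNCL0044W, at chromosome XII 797178 to 797249, was the one tRNA gene with such a peak in all 4 lists. The peak ended 390 and 349 bp from the gene at 16 h and 282 and 269 bp at 14 d. Its fold enrichment was 6.36 and 37.2 at 16 h and 6.65 and 42.2 at 14 d, which was the 41.1 and 95.8 percentile at 16 h and the 19.5 and 95.9 percentile at 14 d. Its summits lay 573.5 to 632.5 bp upstream of the middle of the gene and 682 to 741 bp from the start codon of RPS25B, a ribosomal protein gene. In 14 d repeat 2 the peaks of YNCG0002C at 299 bp (fold enrichment 4.08), YNCK0011C at 321 bp (4.16) and the initiator methionine tRNA gene IMT2 at 486 bp (3.30) were of this kind. The values just inside the window were those of YNCG0040C at 244 bp and EMT5 at 222 bp.

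Other genes of the RNA polymerase III pathway were taken from a list of 28 protein genes and 10 other transcripts. The protein genes encode subunits of the polymerase, TFIIIC, TFIIIB, TFIIIA and the repressor Maf1. Their promoters held a peak in 0, 0, 0 and 1 cases, against 1.20, 9.18, 1.68 and 11.4% of all protein-coding promoters. The 1 gene was RPC40, a subunit shared by polymerases I and III, with a fold enrichment of 3.14 and the summit 331 bp before the start codon in 14 d repeat 2. Among the 10 other transcripts 0, 0, 0 and 4 had a peak. The 4 are 40.0% of the list (exact 95% binomial interval 12.2 to 73.8%), against 7.36% by placement and 11.7% of all nuclear genes in 14 d repeat 2. These were RPR1, the RNA of RNase P (fold enrichment 3.28), and the 5S rRNA genes RDN5-4 (9.59), RDN5-5 (5.75) and RDN5-6 (5.36), all in 14 d repeat 2. The 5S rRNA genes are a family of near-identical repeats, so their separate values are uncertain and they are not independent members. The binomial interval treats them as independent and is therefore too narrow. Many tRNA genes also belong to families of like copies. The handling of reads with several matches is not given in the sources used here, and its effect on the peak calls was not tested.

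For the share of tRNA genes with a peak, the change between 16 h and 14 d was smaller than the spread between the 14 d repeats. The share was 0.727% ± 0.514 (SD, n = 2) at 16 h against 2.36% ± 3.34 (n = 2) in the 14 d libraries, a difference of 1.64 points with p = 1 in a two-sided exact permutation test, in which 2 against 2 libraries cannot go below 0.33. Within repeat 1 the difference was -0.364 points and within repeat 2 it was 3.64, so the direction turned with the repeat. The other 4 values could not be computed for 14 d repeat 1, which had no peak at a tRNA gene. They set 2 libraries against 1, with no spread at 14 d, so they are given as values. The log2 ratio of observed to placed tRNA genes was -0.74 and -1.72 at 16 h and -0.07 in 14 d repeat 2, which lay above both. In 14 d repeat 1 the ratio before the log was 0, against 2.22 tRNA genes by placement, which lay below both. The 14 d lists were therefore on either side of the 16 h lists. The median fold percentile was 5.36 and 70.0 at 16 h and 36.0 in 14 d repeat 2, between them. The median distance of the summit from the gene middle was 296.5 and 140 bp at 16 h and 281.5 bp in 14 d repeat 2, again between them. The share of peaks with the summit in a promoter was 100 and 66.7% at 16 h and 58.3% in 14 d repeat 2, below both. The exact permutation p was 0.667 for the first and the last of these and 1 for the others, and with 3 libraries it says little. After Benjamini-Hochberg adjustment over the 5 exact permutation tests each p was 1. The 10 tRNA genes that 14 d repeat 2 added to 16 h repeat 2 came with a background pileup of 11.7 against 8.87 and wider peaks, and the part of depth and peak width in this was not tested.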

How the data were processed

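Peak lists of 4 Rap1 ChIP-seq libraries were analysed. The authors trimmed reads with Trim Galore, mapped them with Bowtie2 to release R64 and called narrow peaks with MACS2 against matched input. Versions and settings are not given in the sources used here. The lists have 10 columns without a header. Their deposited fold enrichment is a ratio of summit pileup plus 1 to local background plus 1. Per peak the authors deposited a −log10 p-value, a −log10 q-value and a score equal to the truncated product of 10 and the −log10 q. Other deposited columns are positions, given here counted from 1. Peak names of 14 d repeat 2 call it a merge, and what was pooled in it is not given in the sources used here.

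From these values summit pileup and background were solved with a Poisson tail (relative tolerance 0.0001, met by 100% of peaks). The lowest background of a list was its depth, and total read numbers were not used here. tRNA genes, coding sequence and start codons came from the RefSeq gene table of R64, with the strand read from the locus tag. Chromosome ends were set to the furthest gene or peak, which gave 12070715 bp on 16 chromosomes. Mitochondrial peaks were left out of the nuclear comparisons.

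Members and lists were chosen with earlier results of these data known. By the rule for names, tRNA genes were named when they had a peak in all 4 lists, in both repeat 2 lists, or in both repeats of one time only. Protein-coding neighbours were named where a summit lay in their promoter. Genes outside the rule are said to be so or are named as the nearest start codon or just outside the window. Expected numbers under placement were computed exactly and checked against 200 simulated placements. Libraries were compared with two-sided exact permutation tests, in Python 3.11.15 with numpy 2.4.6, pandas 2.3.3 and scipy 1.17.1. Intervals are exact (Clopper-Pearson) at 95%. The repeat numbers in the labels name biological repeats and do not say that a number marks a shared culture. As alternatives, peaks were limited to those with −log10 q above or equal to 5 or to the highest 84 by fold in every list, and there were flanks of 0 and 500 bp, the summit in the window, promoters of 250 and 1000 bp, ranking by −log10 q, leaving out each library and the repeat number as a block. A description of B box and Rap1 motif letters needs genome sequence and was not run.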

Additional observations from a re-analysis of the deposited data

Results flagged for a closer look

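Mitochondrial tRNA genes lie outside the nuclear comparisons. They are listed because, in 14 d repeat 1, peaks appeared at them in data that the report does not otherwise use: 7 of 24 mitochondrial tRNA genes (29.2%) had a peak within 250 bp, and 3 of them had it over the gene body. Uniform placement of the 14 mitochondrial peaks gave 4.26 tRNA genes (17.8%). Of the 22 other mitochondrial genes, which include longer ones, 5 (22.7%) had a peak, against 10.3 by placement. These peaks had a median fold enrichment of 1.98. In 16 h repeat 1 the count was 3 of 24 from 3 peaks, against 0.754 by placement. Both repeat 2 lists held no mitochondrial peak at all, so their count of 0 says nothing about tRNA genes. No test was made on these values, and the added ones were chosen after seeing the data. Depth and the amount of mitochondrial DNA in the libraries were not tested.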

How the results depend on the processing

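With only 2 libraries per time no test could pass a threshold, so direction is what the settings could change. For the share of tRNA genes with a peak, the difference of 14 d minus 16 h was 0 points over the top 84 peaks of each list and -0.727 to 4 points when 1 library was left out. The log2 ratio to placement differed by -0.51 over the top 84 peaks, and by 1.36 when summits were placed on non-coding bases, a setting chosen after seeing the data, and by 0.68 to 1.66 when 1 library was left out. Over the top 84 peaks, only 16 h repeat 1 and 14 d repeat 2 had a tRNA gene with a peak, 1 in each. For this ratio and for the fold percentile, that setting thus sets 1 peak against 1, from lists of unlike repeat number. The median fold percentile differed by 85.2 over the top 84 peaks, by 3.65 when ranked by −log10 q, and by -34.0 to 30.7 when 1 library was left out. The median summit distance differed by -1.5 bp with no flank, by -50.0 bp with a flank of 500 bp, and by -15 to 141.5 bp when 1 library was left out. The promoter share differed by 0 points with no flank and by 8.33 points with promoters of 250 bp, where 1 of 12 peaks at tRNA genes in 14 d repeat 2 and none at 16 h had the summit in a promoter, and by -8.33 to -41.7 points when 1 library was left out. Without 14 d repeat 2 the last 4 values could not be computed, since 14 d repeat 1 has no peak at a tRNA gene. With the repeat number as a replicate block the share differed by 1.64 points (exact sign-flip permutation p = 1, smallest possible 0.5), and for the other values only the repeat 2 pair remained, with 1.66, -34.0, 141.5 bp and -8.33 points. The other settings kept the direction, and the cause of the changes was not tested. Counts of 0 to 13 tRNA genes and the shallow repeat 1 lists limit all of these values.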
